A study of Mus musculus with 3 samples.

Results

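Dividing epithelial cells were described here in single-cell RNA sequencing of dorsal skin. They were the cells in which Krt5, Krt14 and Krt17 together made up at least 0.2% of the unique molecular identifiers (UMIs, tags that each mark 1 captured transcript) and in which Mki67, Top2a and Pclaf each had at least 1 UMI. Cells with 3 or more detected hair genes (Krt25, Krt27, Krt28, Krt71, Krt73, Tchh and Krt35; Krt85 was not used here) and cells with a UMI of Ptprc or Pdgfra were left out. Of 32377 cells that had 500 genes or more and no more than 10% of UMIs from mitochondria, 4339 met the keratin, hair gene, Ptprc and Pdgfra criteria and are called epithelial cells below, and 865 of these were dividing. The cells were therefore chosen by measured values, and the levels of the 3 division genes and of genes that move with them are a description of the choice.

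The skin came from wild-type C57BL/6J mice, aged 8 weeks by the labels, in 3 conditions that share the strain, the age and the site. The paper gives this age where it describes the purchase of the mice, so it appears to be the age at the start. The control group (CON) was not irradiated. The UV group was irradiated on alternate days over 12 weeks with UVA (0.6 mW/cm2) together with UVB (3.5 mW/cm2), and the Rux group received the same irradiation and then an ointment with 1.5% ruxolitinib, an inhibitor of the kinases JAK1 and JAK2. The paper describes CON and UV as given the vehicle without the drug. Each condition was 1 library, and the number of mice behind a library is not given in the sources used here, so no difference between conditions has a replicate check and no test was made. The dividing epithelial cells numbered 623 in CON, 158 in UV and 84 in Rux, with 18337878, 5540857 and 2727400 UMIs. Intervals are 95% exact intervals and cover counting error only. UV was compared with CON, and Rux with UV, so both comparisons use the UV library.

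Skin epithelium is renewed by division in its basal layer and, during hair growth, in the matrix at the base of the follicle. Cells copy their DNA in S phase with the minichromosome maintenance helicase and the sliding clamp PCNA, and then separate the copies in G2 and mitosis with topoisomerase, kinesins and the anaphase-promoting complex. After DNA damage, the transcription factor p53 can hold this cycle through Cdkn1a, and cytokines that act through JAK kinases and STAT factors are known to alter epidermal growth.

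Several properties of the libraries stand before the results. The labels call the mice female, but Ddx3y, a gene of the Y chromosome, had 83.9 CPM (counts scaled to 1000000 UMIs) in CON, 80.9 CPM in UV and 93.1 CPM in Rux within the dividing epithelial cells, and Xist, expressed from the inactive X chromosome, had 0.164 CPM in CON, 0.361 CPM in UV and no UMI in Rux. All 3 libraries went against the label in the same way. Over all barcodes, CON and UV shared 50, UV and Rux 40 and CON and Rux 28. A doublet caller (Scrublet) marked 42 dividing cells in CON, 9 in UV and 2 in Rux, and they were kept. Dividing cells were deeper than epithelial cells as a whole, with a median of 24886 UMIs in CON, 29078 in UV and 30904 in Rux against 13463, 14192 and 15445.

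The epithelial identity was set by the choice of cells, since Krt5, Krt14 and Krt17, which chose them, give most of the summed level of the 10 epithelial markers, which was 10940 CPM in CON, 14763 CPM in UV and 19070 CPM in Rux. A hair matrix identity was borne out for part of the cells at most. The 10 matrix markers summed to 660 CPM in CON, 310 CPM in UV and 259 CPM in Rux, mostly from Cux1, a transcription factor, with 493, 205 and 213 CPM. In epithelial cells with none of the 3 division genes they summed to 174, 225 and 251 CPM, so in Rux the dividing cells were close to the others. At least 3 of the 10 were detected in 326 dividing cells of CON (52.3%), 59 of UV (37.3%) and 20 of Rux (23.8%). Lef1, a Wnt effector, had 37.4 CPM in CON, 21.5 CPM in UV and 4.77 CPM in Rux. Shh, the hedgehog ligand of the matrix, had 11.9 CPM in CON, 5.78 CPM in UV and no UMI in Rux, where a count of 0 allows up to 1.10 CPM. The cells are called dividing epithelial cells for this reason.

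Markers of other cell types were also detected. Pdgfra and Ptprc were at 0 by the choice of cells. Fibroblast markers summed to 554 CPM in CON, 265 CPM in UV and 337 CPM in Rux, led by Dcn, and at least 3 of the 6 were found in 394 dividing cells of CON (63.2%), 106 of UV (67.1%) and 71 of Rux (84.5%). Melanocyte markers summed to 266, 395 and 47.7 CPM, led by Dct, and at least 3 of the 5 were found in 26, 13 and 1 dividing cells. Sebaceous markers summed to 144 CPM in CON, 793 CPM in UV and 197 CPM in Rux, with at least 3 of the 7 in 112, 44 and 30 cells (18.0%, 27.8% and 35.7%). Myeloid markers summed to 18.3 CPM in CON, 92.8 CPM in UV and 65.3 CPM in Rux, led by Cd74, with at least 3 of the 6 in 1, 1 and 0 cells. The erythroid markers, which were 4 haemoglobin genes, summed to 2.34, 19.3 and 591 CPM. In Rux 1 cell held 1537 haemoglobin UMIs, and it was the only dividing cell there with 10 or more. The part of these cell types in the results below was not tested, except where values without such cells are given.

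The criteria cut through a continuum. Exactly 1 UMI of at least 1 division gene was found in 140 dividing cells of CON, 25 of UV and 16 of Rux, and 271, 79 and 59 epithelial cells just outside had only 2 of the 3 genes. Keratin shares between 0.2% and 0.3% were found in 64, 20 and 8 dividing cells, and 54, 21 and 11 otherwise matching cells lay between 0.1% and 0.2%. Of the cells that met all other criteria, 336 of CON, 110 of UV and 67 of Rux had 3 hair genes, and 287, 159 and 90 had more.

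The promoters of the S-phase and G2/M genes were read for letters known from cell cycle genes. In promoters from RefSeq (GRCm38.p6, 250 bases before to 50 bases after a gene start), the letters TTTGAA of the cell cycle homology region, searched on both strands, were found in 31 of 44 windows of the G2/M genes (70.5%), in 6 of 43 windows of the S-phase genes (14.0%) and in 17.9% of all 32851 windows. CCAAT was found in 77.3% of the G2/M windows, 55.8% of the S-phase windows and 37.4% of all windows. The E2F letters TTTCGCGC were found in 16.3% of the S-phase windows, 2.27% of the G2/M windows and 0.323% of all windows. Of the 48 G2/M genes 40 had an entry, and of the 44 S-phase genes 35. These matches are a description of the sequence and not of binding.

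Windows are shown for a gene that chose the cells, a mitotic gene and a replication gene, since the balance of such genes differed between the conditions. The window of Top2a (ENSMUSG00000020914), which untangles copied DNA, lies at chr11:99024140-99024439 on the minus strand and holds 2 TTTGAA and 6 CCAAT matches. The window of Cdc20 (ENSMUSG00000006398), an activator of the anaphase-promoting complex, lies at chr4:118437294-118437593 on the minus strand and holds 1 and 2. That of Mcm6 (ENSMUSG00000026355), a helicase subunit, lies at chr1:128359656-128359955 on the minus strand and holds 1 TTTCGCGC match. Capitals mark TTTGAA and CCAAT, or their reverse complements, in the first pair and the E2F letters in the last.
Top2a: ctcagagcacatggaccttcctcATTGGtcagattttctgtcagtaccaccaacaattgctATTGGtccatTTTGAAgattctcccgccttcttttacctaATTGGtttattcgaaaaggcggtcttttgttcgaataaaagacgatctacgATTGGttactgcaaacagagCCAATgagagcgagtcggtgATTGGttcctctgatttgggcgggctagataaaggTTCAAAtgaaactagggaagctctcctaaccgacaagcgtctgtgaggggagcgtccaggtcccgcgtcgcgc
Cdc20: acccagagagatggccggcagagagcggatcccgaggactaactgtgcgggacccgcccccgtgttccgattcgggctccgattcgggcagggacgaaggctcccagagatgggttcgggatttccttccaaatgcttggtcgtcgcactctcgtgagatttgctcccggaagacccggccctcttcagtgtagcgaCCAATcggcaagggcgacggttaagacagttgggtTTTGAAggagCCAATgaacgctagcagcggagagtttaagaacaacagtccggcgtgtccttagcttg
Mcm6: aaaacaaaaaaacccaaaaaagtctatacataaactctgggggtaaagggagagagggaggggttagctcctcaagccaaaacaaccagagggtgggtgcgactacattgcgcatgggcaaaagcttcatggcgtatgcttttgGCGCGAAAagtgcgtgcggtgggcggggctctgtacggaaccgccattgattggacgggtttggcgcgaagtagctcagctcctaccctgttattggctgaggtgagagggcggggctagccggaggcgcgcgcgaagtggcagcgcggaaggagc

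The share of epithelial cells that were dividing was highest in CON and lowest in Rux. It was 23.6% (22.0% to 25.3%) in CON, 18.1% (15.6% to 20.8%) in UV and 10.2% (8.18% to 12.4%) in Rux, and the intervals did not overlap. With every cell thinned to 5000 UMIs, and shallower cells left out, the share was 14.6% in CON, 10.6% in UV and 6.30% in Rux, in the same order. With at least 2 UMIs of each division gene it was 18.3% (16.9% to 19.8%) in CON and 15.2% (12.9% to 17.8%) in UV. With no limit on the hair genes it was 36.1% (34.5% to 37.7%) and 32.7% (30.2% to 35.3%), so the intervals of CON and UV overlapped in both. Where the keratin share was at least 1% the dividing share was 10.9% in CON, 15.9% in UV and 11.3% in Rux, and where no hair gene was detected it was 12.0%, 12.3% and 5.91%, so that CON was not above UV in either. Epithelial cells themselves were 23.0% of kept cells in CON, 7.93% in UV and 8.36% in Rux, a share that dissociation can set, and whether fewer cells were present or fewer were recovered cannot be told apart.

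With all UMIs, this order hid opposite directions in sets of epithelial cells, called compartments below. Epithelial cells were split by a UMI of Lgr5, a receptor of Wnt agonists in lower follicle stem cells, or Lhx2, a transcription factor of the same region. This split, like that by Ly6a below, was chosen after seeing the data. Where either gene was detected, 529 of 1186 cells were dividing in CON (44.6%, 41.7% to 47.5%), 83 of 388 in UV (21.4%, 17.4% to 25.8%) and 31 of 382 in Rux (8.12%, 5.58% to 11.3%). Where neither was detected, 94 of 1452 cells were dividing in CON (6.47%, 5.26% to 7.86%), 75 of 486 in UV (15.4%, 12.3% to 19.0%) and 53 of 445 in Rux (11.9%, 9.05% to 15.3%). So, with all UMIs, the dividing share was lower in UV and Rux than in CON with Lgr5 or Lhx2, and higher than in CON without them. Depth differed, with a median of 19884 UMIs in CON, 28831 in UV and 33632 in Rux for dividing cells with neither gene. For those with Lgr5 or Lhx2 it was 25903, 29779 and 26139. Both directions remained where the keratin share was at least 1%, with 27.0%, 9.47% and 6.51% in the first set and 4.51%, 19.3% and 15.2% in the other.

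At 5000 UMIs per cell the first difference remained and the other became smaller. Lgr5 and Lhx2 were also read from the thinned counts. Cells that lost these UMIs were therefore counted with neither gene, and the sets are not the same cells as above. Cells with Lgr5 or Lhx2 were dividing in 26.4% of cases in CON, 10.4% in UV and 2.77% in Rux. Cells with neither were dividing in 6.90% (5.60% to 8.39%), 10.8% (8.15% to 14.0%) and 8.24% (5.90% to 11.1%), and here the intervals overlapped. Without a limit on the hair genes (also chosen after the data were seen), the shares were 58.1%, 43.8% and 26.0% with Lgr5 or Lhx2 and 8.10%, 21.1% and 17.8% with neither. Free RNA can also give such UMIs. In Pdgfra+ cells, taken as the background, Lgr5 or Lhx2 was detected in 15.3% of cells of CON, 11.2% of UV and 8.76% of Rux at a median of 6912, 8206 and 10552 UMIs, and Mki67 in 10.7%, 6.02% and 4.64%. Some Pdgfra+ cells met the division criterion themselves (2.24%, 1.86% and 1.11%), so part of their Mki67 may be their own. The share from free RNA was not tested.

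Cells with neither gene were split further by a UMI of Ly6a (Sca-1), a surface protein of the interfollicular epidermis and infundibulum. Of Ly6a+ cells, 57 of 806 were dividing in CON (7.07%, 5.40% to 9.07%), 50 of 200 in UV (25.0%, 19.2% to 31.6%) and 45 of 220 in Rux (20.5%, 15.3% to 26.4%). At 5000 UMIs per cell, with Lgr5, Lhx2 and Ly6a also read from the thinned counts, these shares were 3.69%, 17.3% and 12.1%. In cells without Ly6a the shares were 5.73%, 8.74% and 3.56% with all UMIs and 9.09%, 8.84% and 6.54% at 5000 UMIs per cell, so that UV was above CON in the first and not in the other. Ly6a was also detected in 83.4% to 93.3% of Pdgfra+ cells, which express it, so the part of free RNA in these calls was not tested.

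**Figure D1:**
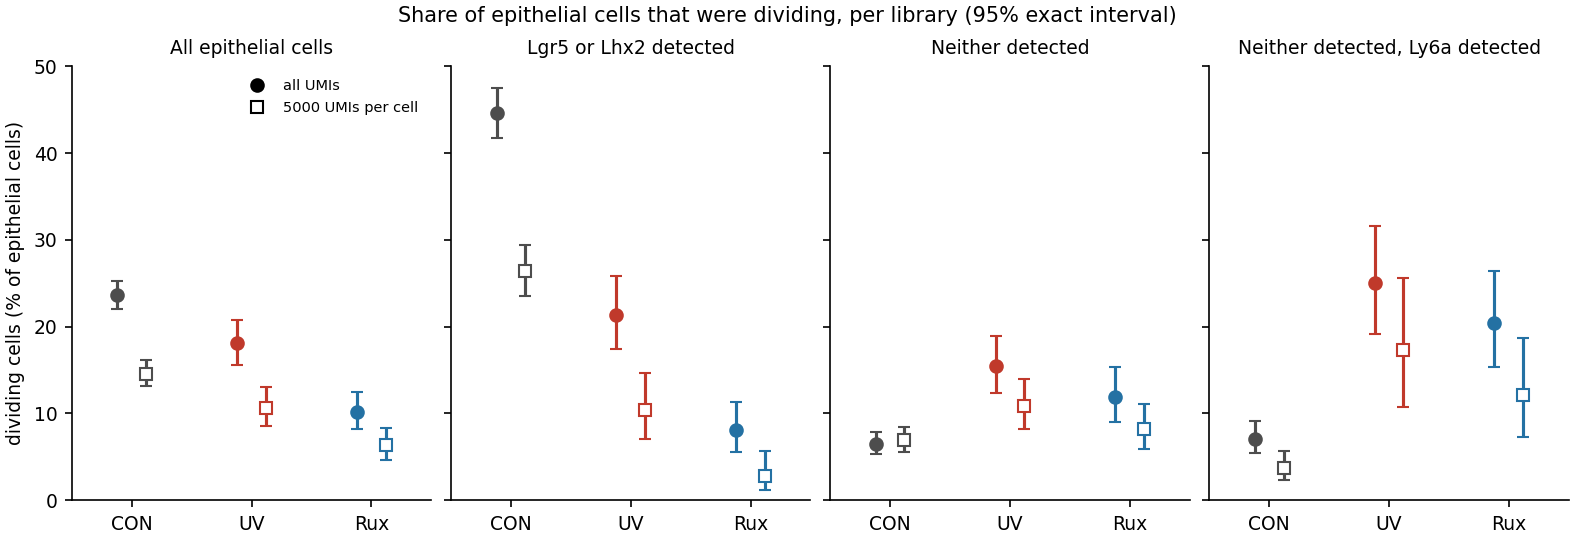
Share of epithelial cells that were dividing (%, y axis from 0) in the CON, UV and Rux libraries, for all epithelial cells and for those split by detection of Lgr5 or Lhx2 and then Ly6a; filled points use all UMIs, open squares 5000 UMIs per cell, and bars are 95% exact intervals. With all UMIs, the points with Lgr5 or Lhx2 go down from 44.6% in CON to 8.12% in Rux, whereas with neither gene CON is lowest at 6.47%. At 5000 UMIs per cell the interval of CON with neither gene overlaps those of UV and Rux.

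The makeup of the dividing cells differed accordingly. Lgr5 or Lhx2 was detected in 84.9% of the dividing cells of CON, 52.5% of UV and 36.9% of Rux, and at 5000 UMIs per cell in 71.3%, 35.4% and 15.6%. With a keratin share of at least 1% it was 70.2%, 20.9% and 26.2%, so that UV was then below Rux. In epithelial cells with none of the 3 division genes the order was the reverse, with 25.6%, 46.1% and 52.5%. Ly6a was detected in 32.7% of the dividing cells of CON, 47.5% of UV and 65.5% of Rux. Levels below are those of all dividing cells, and for many genes the ratios within the cells with Lgr5 or Lhx2 and with neither are given beside them.

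Lgr5, Lhx2 and Ptch1 were lower in the dividing cells of UV than of CON and lower again in Rux, whereas the lists that hold them were mixed. Lgr5 had 199 CPM in CON, 105 CPM in UV and 31.9 CPM in Rux, and Lhx2 had 271, 104 and 32.6 CPM, although with a keratin share of at least 1% Rux was above UV, by 1.54 and 0.23 on the log2 scale. Ptch1, the hedgehog receptor and a target of the pathway, had 276 CPM in CON, 88.6 CPM in UV and 30.4 CPM in Rux, a log2 ratio of −1.64 (−1.77 to −1.50) for UV over CON and −1.53 (−1.90 to −1.20) for Rux over UV. Over the alternatives, the ratio for UV over CON came as near to 0 as −0.15 for Lgr5, −0.61 for Lhx2 and −0.99 for Ptch1. That of Ptch1 for Rux over UV came to −0.69, and all of these are below 2-fold. Sox5, a transcription factor, had 577, 203 and 116 CPM, and its ratio for UV over CON was −0.68, below 2-fold, in an alternative. The order was the same for Gli2, a transcription factor at the end of the pathway, with 95.3, 54.3 and 23.1 CPM, and for its signal transducer Smo, with 108, 66.1 and 50.6 CPM, although Gli2 was not past 2-fold for UV over CON and Smo in neither comparison. Within cells with Lgr5 or Lhx2 the ratio of Ptch1 was −0.997 for UV over CON and −1.21 for Rux over UV, and within cells with neither it was −0.31 and −0.47.

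Several genes of the basal and interfollicular epidermis, and Postn of the follicle stem cell and germ list, were higher in UV than in CON. Krt14 and Krt5, the keratin partners of the basal layer, had 2129 and 1727 CPM, respectively, in CON, 5640 and 3346 in UV and 8250 and 4604 in Rux. Krt17, a keratin of the follicle, had 3356 CPM in CON, 1772 CPM in UV and 1319 CPM in Rux. The sum of these keratins was used to choose the cells, so their levels are a description of the choice. The log2 ratio of Krt14 for UV over CON was 0.73, below 2-fold, in an alternative. Thbs1, an extracellular glycoprotein, had 175 CPM in CON, 575 CPM in UV and 604 CPM in Rux, and Postn, a matricellular protein of the follicle stem cell and germ list, had 53.4, 186 and 256 CPM. Col17a1, a hemidesmosome collagen, had 202 CPM in CON, 384 CPM in UV and 516 CPM in Rux. The ratio of UV to CON depended on the compartment for Krt15, a basal keratin, with 1.64 in cells with Lgr5 or Lhx2 and −0.70 in cells with neither, and stayed positive in both for Thbs1, with 1.52 and 0.89, and for Postn, with 1.78 and 0.86.

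Between UV and CON, 3745 genes had at least 50 CPM on average and at least 50 UMIs, and 87 of them were at least 2-fold higher in UV (2.32%) and 31 at least 2-fold lower (0.828%), with a median log2 ratio of −0.08. Between Rux and UV, 15 of 3674 genes were higher (0.408%) and 50 lower (1.36%), with a median of 0.01. Between Rux and CON, 141 of 3709 were higher (3.8%) and 106 lower (2.86%). These shares are the background for the gene lists in all dividing cells. In cells with Lgr5 or Lhx2, 67 of 3756 genes were higher for UV over CON (1.78%) and 12 lower (0.319%), and for Rux over UV 41 of 3722 were higher (1.1%) and 94 lower (2.53%). In cells with neither, 60 of 3620 were higher for UV over CON (1.66%) and 31 lower (0.856%), and for Rux over UV 22 of 3603 were higher (0.611%) and 45 lower (1.25%). Of 7 tested markers of follicle stem cells and germ 1 was higher and 1 lower for UV over CON, with a median of −0.13, and within cells with Lgr5 or Lhx2 2 were higher and 0 lower, with a median of 0.29. For Rux over UV in all dividing cells 0 were higher and 3 lower, with a median of −0.93. Lgr5 and Lhx2 are on this list and set the split. The values within cells with Lgr5 or Lhx2 are thus in part a description of that choice. Of 13 tested Wnt, hedgehog and BMP genes 1 was lower for UV over CON and 2 for Rux over UV, with 0 higher. Of 8 tested interfollicular basal markers 3 were higher and 0 lower for UV over CON, with a median of 0.88, but −0.10 in cells with neither Lgr5 nor Lhx2. Between Rux and UV the 8 had a median of 0.04 and 0 were past 2-fold, and their sum was 4723 CPM in UV and 4254 CPM in Rux. Of 6 tested infundibulum markers 3 were higher and 0 lower for Rux over UV, with a median of 0.85. With Lgr5 or Lhx2 1 was higher and 2 lower, with a median of −0.74, and with neither 3 were higher and 0 lower, with a median of 0.93. This list was led in Rux by Cst6, which is described below.

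The summed level of the S-phase genes was lower in UV than in CON, and that of the G2/M genes slightly higher. The 44 S-phase genes summed to 3560 CPM in CON, 2657 CPM in UV and 2978 CPM in Rux, a log2 ratio of −0.42 (−0.45 to −0.40) for UV over CON. None of the 24 that passed the minimum differed by 2-fold, and their median was −0.42. Within cells with Lgr5 or Lhx2 the sum had a ratio of −0.33 for UV over CON, and within cells with neither −0.14. With neither, the sum was 2615 CPM in CON, 2367 CPM in UV and 2974 CPM in Rux, so Rux was highest there. Mcm6 had 104 CPM in CON, 55.2 CPM in UV and 80.7 CPM in Rux, and Hells, a chromatin remodeller of replicating cells, had 110, 64.4 and 72.6 CPM. Pcna had 263 CPM in CON, 198 CPM in UV and 234 CPM in Rux. CON was highest for all 3 genes and UV lowest.

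The 48 G2/M genes summed to 3578 CPM in CON, 3836 CPM in UV and 4629 CPM in Rux, with 0 of the 30 that passed the minimum past 2-fold in either comparison. Their medians were 0.15 for UV over CON and 0.29 for Rux over UV. The ratio of the sums for Rux over UV was 0.27, but −0.032 with no limit on the hair genes and 0.012 where the keratin share was at least 1%, and for UV over CON it was 0.10, but 0.022 with no limit on the hair genes. Ube2c, the ubiquitin carrier of the anaphase-promoting complex, had 150 CPM in CON, 204 CPM in UV and 238 CPM in Rux, and Anln, a protein of the contractile ring, had 87.0, 122 and 202 CPM. Both were in the order CON, UV, Rux. Within cells with neither Lgr5 nor Lhx2 the G2/M median for UV over CON was −0.14, so the higher level in UV was not found in that compartment.

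Among the genes that chose the cells, Mki67, a protein of the mitotic chromosome surface, had 401 CPM in CON, 382 CPM in UV and 454 CPM in Rux. Top2a had 439, 474 and 540 CPM, and Pclaf, a PCNA-binding protein, 376, 299 and 302 CPM. Stmn1 and Itga2 are also markers of these cells and were not used to choose them. Stmn1, which destabilises microtubules, had 1262 CPM in CON, 819 CPM in UV and 866 CPM in Rux, against 109, 85.6 and 62.0 CPM in epithelial cells with none of the division genes. Itga2, a collagen-binding integrin chain, had 244, 217 and 213 CPM against 79.8, 173 and 144 CPM, so it marked the dividing cells less in UV and Rux than in CON.

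Per cell, the balance of the lists moved the same way. With every dividing cell thinned to 5000 UMIs, the median number of S-phase UMIs was 17 in CON, 13 in UV and 13.5 in Rux, and that of G2/M UMIs 14, 18 and 21.5. More G2/M than S-phase UMIs were found in 42.1% of 617 cells of CON, 61.1% of 157 of UV and 63.1% of 84 of Rux. With Lgr5 or Lhx2 the shares were 40.6%, 56.6% and 54.8%, and with neither 51.1%, 66.2% and 67.9%. CON had the lowest share in both compartments, but within each compartment the intervals of Rux and CON overlapped, and with neither gene so did those of UV and CON (54.3% to 76.8% and 40.3% to 61.8%). As a share of all S-phase and G2/M UMIs, those of G2/M were 49.0%, 56.4% and 58.4% with Lgr5 or Lhx2 and 62.4%, 62.3% and 61.6% with neither, where CON was not the lowest. The part of free RNA in these counts was not tested.

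**Figure D2:**
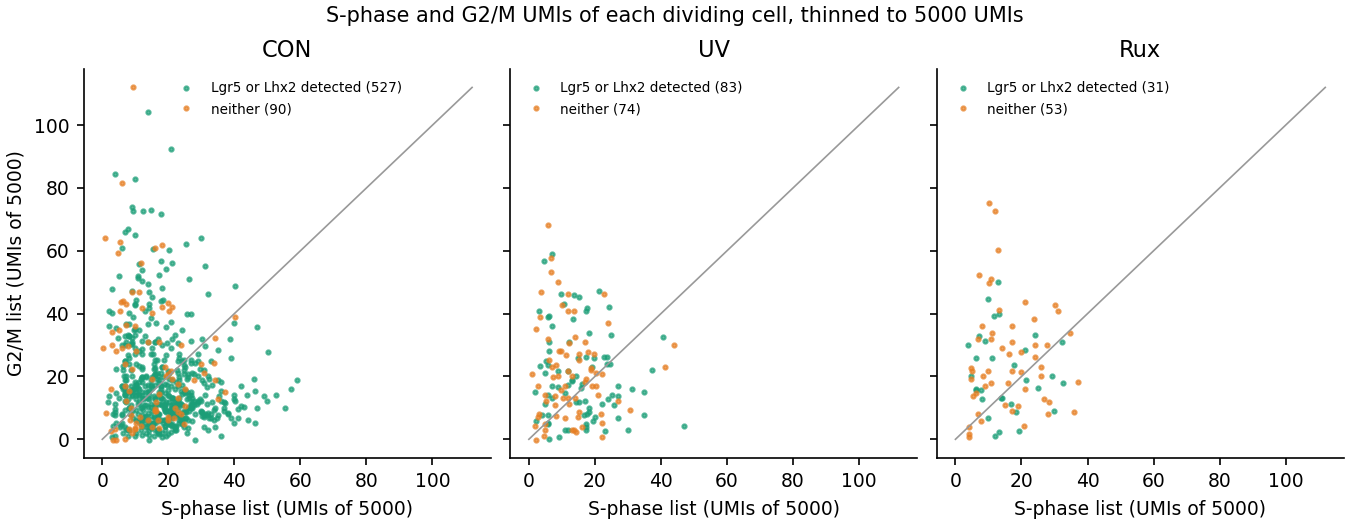
UMIs of the S-phase list (x axis) and of the G2/M list (y axis) in each dividing cell after thinning to 5000 UMIs, with the line of equal numbers, for CON, UV and Rux; colour marks detection of Lgr5 or Lhx2 in the full data and points are spread slightly to separate ties. Above the line lie 42.1% of the cells in CON, 61.1% in UV and 63.1% in Rux.

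The median of the growth genes was lower in UV as well. Of 14 tested nucleolar and growth genes 1 was past 2-fold, Wdr12, a ribosome assembly factor with 143 CPM in CON, 49.99 CPM in UV and 30.8 CPM in Rux, and the median for UV over CON was −0.49, or −0.37 in cells with Lgr5 or Lhx2 and −0.31 with neither. The ratio of Wdr12 was −1.51, and −0.27, below 2-fold, where the keratin share was at least 1%. Ccnd1 and Ccnd2, the D-type cyclins that lead cells into S phase, had 262 and 388 CPM, respectively, in CON, 161 and 233 in UV and 118 and 272 in Rux. Their ratios for UV over CON were −0.37 and −0.95 in cells with Lgr5 or Lhx2 and −0.15 and −0.78 with neither. The 18 genes of replication-associated chromatin had a median of −0.52 for UV over CON, with 0 past 2-fold, and medians of −0.41 and −0.30 in these compartments.

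Several targets of p53 were higher in the dividing cells of both irradiated libraries. Of 23 listed genes 12 were tested for UV over CON, and 3 were at least 2-fold higher and 0 lower, beside 2.32% and 0.828% of all genes. The median of the 12 was 0.75 against −0.08 for all genes. Cdkn1a, the inhibitor p21 of the cyclin-dependent kinases, had 145 CPM in CON, 316 CPM in UV and 356 CPM in Rux, a ratio of 1.13 (1.04 to 1.21). Trp53inp1, a p53-induced nuclear protein, had 38.1, 177 and 240 CPM, a ratio of 2.22 (2.08 to 2.36), and Plk2, a polo-like kinase induced by stress, had 65.0, 178 and 126 CPM, a ratio of 1.46 (1.33 to 1.58). CON was lowest for all 3. The ratio of Cdkn1a was 0.70 where the keratin share was at least 1% and 0.58 with no limit on the hair genes, below 2-fold, whereas Trp53inp1 and Plk2 stayed past 2-fold in every alternative tried. Mdm2, the ubiquitin ligase of p53, had 75.3 CPM in CON, 111 CPM in UV and 129 CPM in Rux, and Bax, a cell death effector, had 113, 108 and 101 CPM.

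The median of the p53 list for UV over CON was 0.79 in cells with Lgr5 or Lhx2, where 4 of 13 genes were 2-fold higher and 0 lower, beside 1.78% and 0.319% of all genes there. It was 0.54 in cells with neither, where 2 of 12 were higher and 1 was lower, Sesn1, beside 1.66% and 0.856%. For Cdkn1a the ratios were 1.08 and 0.69, and for Trp53inp1 2.31 and 1.41. In epithelial cells with none of the division genes Cdkn1a had 279 CPM in CON, 305 CPM in UV and 308 CPM in Rux, a ratio of 0.12 for UV over CON, and Trp53inp1 had a ratio of 0.96. Between Rux and UV, 0 of 14 tested p53 targets were past 2-fold in either direction and the median was 0.05. Within cells with Lgr5 or Lhx2, 2 of 12 were 2-fold lower, Phlda3 and Fas, beside 2.53% of all genes there, and the median was −0.11.

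B2m, H2-K1 and H2-D1 of MHC class I, from the list of interferon-stimulated genes, were higher in UV and Rux than in CON. Of 22 listed interferon-stimulated genes only 5 were tested for UV over CON, 2 of them at least 2-fold higher, B2m and H2-K1, beside 2.32% of all genes. B2m, the class I light chain, had 399 CPM in CON, 852 CPM in UV and 929 CPM in Rux, and H2-K1, a class I heavy chain, had 272, 606 and 606 CPM. H2-D1, another heavy chain, had 343, 584 and 612 CPM and stayed below 2-fold in every alternative tried. In cells with Lgr5 or Lhx2 B2m had 291 CPM in CON, 588 CPM in UV and 677 CPM in Rux, and in cells with neither 1251, 1136 and 1051 CPM. H2-K1 had 192, 457 and 453 CPM in the first and 901, 766 and 681 CPM in the other, and H2-D1 277, 495 and 537 CPM and 863, 680 and 649 CPM. The median of the list for UV over CON was 0.92 over 4 genes in the first and −0.19 over 8 genes in the other. Given the CON mix of both compartments in every library, the ratio was 0.70 for B2m and 0.85 for H2-K1, below 2-fold. Between Rux and UV the median of the list was 0.07. Myeloid markers, led by Cd74 with 12.6, 82.5 and 60.1 CPM, were also higher in UV and Rux than in CON. They summed to 17.3, 33.8 and 7.84 CPM with Lgr5 or Lhx2 and 26.7, 156 and 93.2 CPM with neither. Their part in the levels of the class I genes was not tested.

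**Figure D3:**
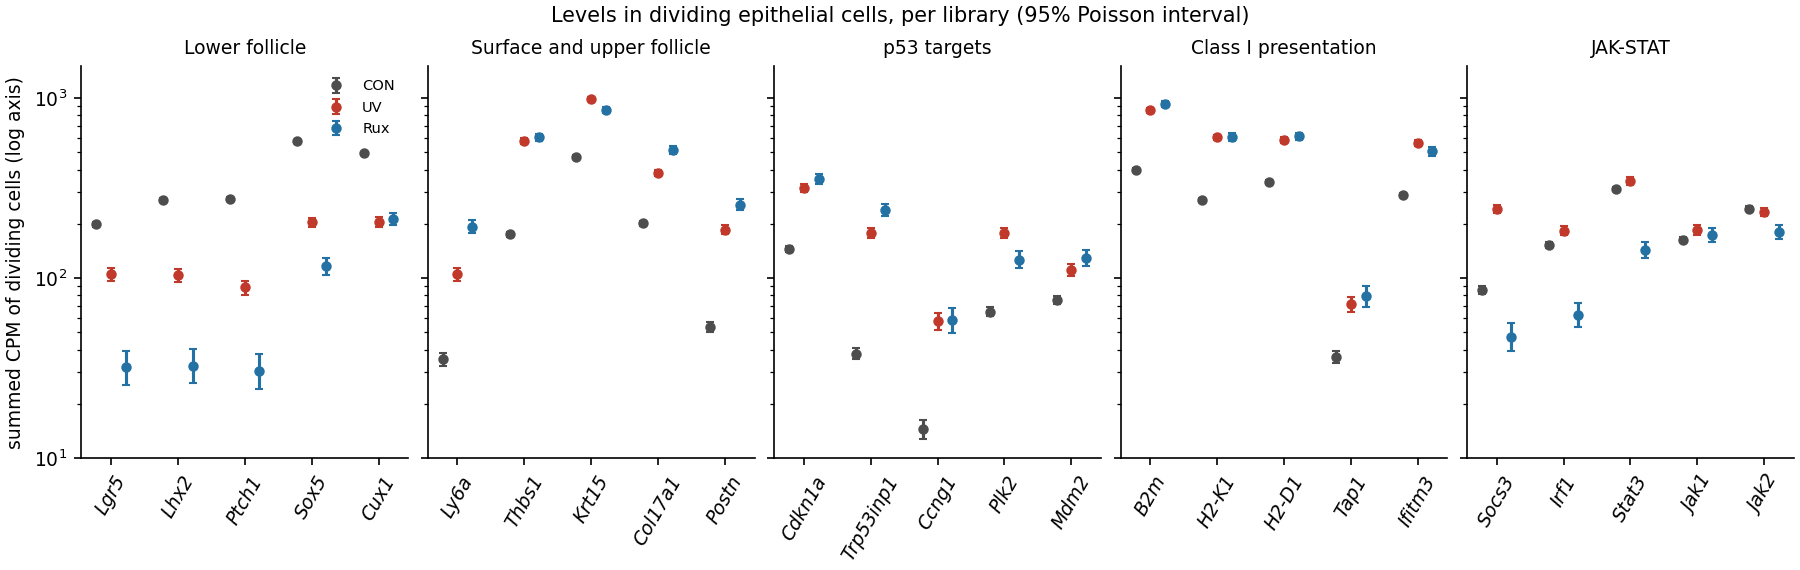
Summed CPM (log axis) of named genes in all dividing epithelial cells of CON, UV and Rux, with 95% Poisson intervals. Lgr5, Lhx2 and Ptch1 are highest in CON, Cdkn1a, Trp53inp1 and Plk2 lowest in CON, and Socs3, Irf1 and Stat3 lowest in Rux at 47.3, 62.3 and 143 CPM.

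Socs3, Irf1 and Stat3, genes of the JAK-STAT pathway that ruxolitinib is known to inhibit, were lower in Rux than in UV. Of 30 listed genes 13 passed the minimum, and these 3 were at least 2-fold lower and 0 higher, beside 1.36% and 0.408% of all genes. The median of the 13 was −0.36 against 0.01 for all genes. Socs3 (ENSMUSG00000053113), the feedback inhibitor of JAK kinases, had 86.2 CPM in CON, 243 CPM in UV and 47.3 CPM in Rux. Irf1 (ENSMUSG00000018899), a transcription factor of interferon responses, had 153, 184 and 62.3 CPM, and Stat3, a STAT factor that induces its own gene, had 312, 346 and 143 CPM. Rux was lowest for all 3 genes. The ratio of Socs3 for UV over CON was 1.49 (1.39 to 1.60), 0.86 with no limit on the hair genes, 1.73 in cells with Lgr5 or Lhx2 and 0.26, below 2-fold, in cells with neither.

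For Rux over UV the log2 ratio was −2.35 (−2.63 to −2.10) for Socs3, −1.55 (−1.80 to −1.32) for Irf1 and −1.28 (−1.44 to −1.12) for Stat3. These held in both compartments, with −2.59 and −2.28 for Socs3, −2.96 and −1.27 for Irf1, and −1.41 and −1.14 for Stat3, in cells with Lgr5 or Lhx2 and with neither. They were not particular to dividing cells, since in epithelial cells with none of the division genes the ratios were −1.75, −1.77 and −0.98. All 3 stayed at least 2-fold lower in every alternative tried. The cell with the most Socs3 held 2.85% of its UMIs in CON, 4.32% in UV and 13.2% in Rux.

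The receptors and kinases differed less. Osmr, the oncostatin M receptor, had 63.0 CPM in CON, 124 CPM in UV and 67.8 CPM in Rux, and Il13ra1, a receptor chain for IL-4 and IL-13, had 138, 151 and 88.0 CPM. Cish, another feedback inhibitor, had 41.6, 68.6 and 43.3 CPM. Jak1 had 164 CPM in CON, 184 CPM in UV and 173 CPM in Rux, a ratio of −0.09 (−0.25 to 0.07) for Rux over UV, and Jak2 had 243, 232 and 181 CPM, a ratio of −0.36 (−0.51 to −0.21).

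The promoters of Socs3 and Irf1 are shown for the STAT letters TTCNNNGAA, which were found in 5 of 33 windows of the JAK-STAT list (15.2%) and in 8.30% of all windows. The window of Socs3 lies at chr11:117969317-117969616 on the minus strand and holds 1 match. That of Irf1 lies at chr11:53769764-53770063 on the plus strand and also holds 1, and its other window holds none. The window of Stat3 holds none, which says only that these letters are not in it. Capitals mark the matches.
Socs3: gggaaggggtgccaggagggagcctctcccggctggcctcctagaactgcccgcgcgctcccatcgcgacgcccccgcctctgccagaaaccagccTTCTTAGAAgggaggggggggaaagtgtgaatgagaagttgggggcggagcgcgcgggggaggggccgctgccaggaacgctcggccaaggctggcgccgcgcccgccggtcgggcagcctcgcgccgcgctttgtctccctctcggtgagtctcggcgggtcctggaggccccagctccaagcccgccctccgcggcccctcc
Irf1: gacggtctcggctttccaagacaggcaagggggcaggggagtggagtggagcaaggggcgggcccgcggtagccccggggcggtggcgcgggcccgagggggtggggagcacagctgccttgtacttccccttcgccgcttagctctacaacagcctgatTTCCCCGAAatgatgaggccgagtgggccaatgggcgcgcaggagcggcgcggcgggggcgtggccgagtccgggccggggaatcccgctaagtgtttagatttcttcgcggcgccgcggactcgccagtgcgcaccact

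**Figure D4:**
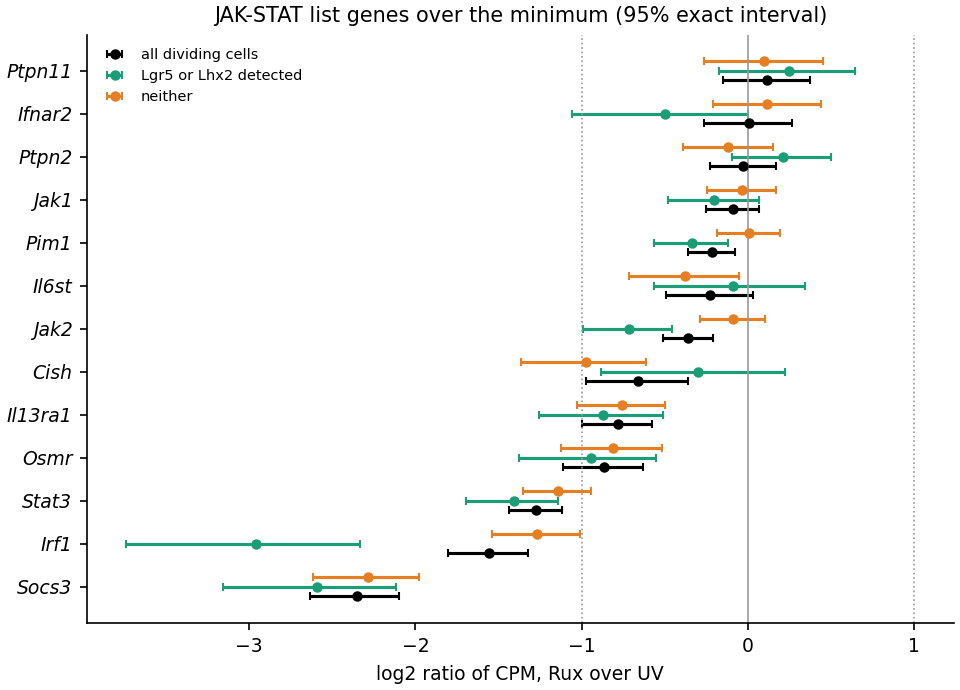
Log2 ratio of CPM for Rux over UV (x axis) of the 13 JAK-STAT genes over the minimum, in all dividing cells and in those with Lgr5 or Lhx2 and with neither; bars are 95% exact intervals and dotted lines mark 2-fold. Socs3, Irf1 and Stat3 lie below the lower line in all 3 sets of cells, and Jak1 lies near 0 at −0.09.

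Other signalling genes also differed between Rux and UV. Cebpd, a transcription factor induced by cytokines, had 130 CPM in CON, 144 CPM in UV and 34.1 CPM in Rux, a ratio of −2.07 (−2.40 to −1.76). Id1, a target of BMP signalling, had 470, 487 and 210 CPM, a ratio of −1.21, and −0.58, below 2-fold, with no limit on the hair genes. In cells with Lgr5 or Lhx2 and with neither the ratios were −1.38 and −2.59 for Cebpd and −1.29 and −0.77 for Id1. Of the 20 immediate-early genes 2 were at least 2-fold higher in UV than in CON, Dusp1 and Klf2, beside 2.32% of all genes. Only 1 was at least 2-fold lower in Rux than in UV, Klf2, beside 1.36% of all genes. Klf2 had 37.6 CPM in CON, 80.1 CPM in UV and 39.6 CPM in Rux. In cells with neither Lgr5 nor Lhx2, 0 of the 20 were 2-fold higher in UV than in CON and 1 was lower, Nr4a2, beside 1.66% and 0.856% of all genes there, and the ratios of Dusp1 and Klf2 were 0.16 and −0.03. In all dividing cells, with no limit on the hair genes, the ratios of Dusp1 and Klf2 for UV over CON were 0.63 and 0.32, below 2-fold. The lower level of Klf2 in Rux fell short of 2-fold in most alternatives and turned to 0.45 where no hair gene was detected. Fos had 1216 CPM in CON, 2086 CPM in UV and 1298 CPM in Rux, and its log2 ratio for UV over CON was 1.08 in cells with Lgr5 or Lhx2 and −0.02 in cells with neither.

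The genes with the largest ratios often came from few cells. For UV over CON the 9 highest were Cstdc5, Elovl4, Krt6a, Scd1, Mgll, Stfa3, Ifi202b, Aqp3 and Mgst1. Krt6a, a keratin of stressed epidermis and the companion layer, had 30.3 CPM in CON, 299 CPM in UV and 336 CPM in Rux, and was detected in 20.2%, 50.6% and 66.7% of dividing cells. Of 5 tested stress keratin and alarmin genes 2 were higher and 1 lower for UV over CON, beside 2.32% and 0.828% of all genes. Krt16, another stress keratin, went the other way, with a ratio between −1.39 and −0.87 in the settings tried. Cstdc5, a stefin, had 16.7 CPM in CON, 582 CPM in UV and 1036 CPM in Rux and was detected in 7.70%, 30.4% and 50%; it and Stfa3 have near-identical copies, so their counts are uncertain. Aqp3, a glycerol channel, had 29.9, 186 and 243 CPM, and Ifi202b, an interferon-inducible gene, had 24.8, 172 and 198 CPM.

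Elovl4, Scd1 and Mgll, enzymes of lipid metabolism that sebaceous cells express strongly, were higher in UV than in both other libraries. Scd1 had 51.2 CPM in CON, 408 CPM in UV and 43.3 CPM in Rux, and Elovl4 8.83, 110 and 11.4 CPM. In UV 1 cell held 77.6% of the Elovl4 UMIs, 45.0% of those of Scd1 and 40.5% of those of Mgll. Without cells that had 3 or more melanocyte, sebaceous or erythroid markers (also chosen after the data were seen), the ratio for UV over CON was −0.76 for Elovl4 and −0.38 for Scd1, below 0 in place of above it. At least 3 sebaceous markers were found in 44 of the 158 cells of UV, so the cells left out were not few. With only the top cell of the gene left out, the ratios were 1.88 and 2.34.

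The 10 lowest genes for UV over CON were Pi15, Col14a1, Nrtn, Ptch1, Col1a1, Scd2, Ckb, Wdr12, Sox5 and Gm973. The ratio of Gm973 was −0.73, below 2-fold, in an alternative. Nrtn, a neurotrophic factor of the GDNF family, had 109 CPM in CON, 31.8 CPM in UV and 15.03 CPM in Rux, and Ckb, a creatine kinase, had 108, 37.5 and 24.9 CPM, with a ratio for UV over CON of −0.21 where no hair gene was detected. Pi15, a secreted protein of the CRISP family, had 165, 40.1 and 32.3 CPM. CON was the highest library for these 3 genes. For Col1a1, a fibroblast collagen, 1 cell held 48.9% of the UMIs in CON, and its ratio of −1.55 became −0.53, below 2-fold, without marked doublets and −0.63 without the top cell of each library.

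Among the 10 lowest genes for Rux over UV were Cers4, Elovl4, Scd1, Elovl6, Pmel, Dct, Mgll, Socs3 and Cebpd, and 5 of these were lipid genes of the kind described above and 2, Pmel and Dct, pigment genes. In UV 1 cell held 70.2% of the Pmel UMIs, 64.6% of those of Dct, 56.0% of those of Elovl6 and 43.3% of those of Cers4. Socs3 and Cebpd were spread more widely, with 4.32% and 8.04% in 1 cell of UV. The 10 highest were Sprr1a, Cst6, Fry, Defb6, Ggct, Stfa1, Slc12a2, Krtdap, Ctsc and Tppp3, and with a keratin share of at least 1% all 10 were below 2-fold. Sprr1a, a precursor of the cornified envelope, had 33.0 CPM in CON, 36.8 CPM in UV and 120 CPM in Rux, but 1 cell of Rux held 25.9% of its UMIs and the ratio was −0.24 where the keratin share was at least 1%. Slc12a2, a sodium, potassium and chloride cotransporter, had 52.6, 60.5 and 136 CPM, with 6.72% in 1 cell of Rux, and its ratio was 0.67, below 2-fold, where the keratin share was at least 1%. For Cst6, a cystatin of cornifying cells, 1 cell of Rux held 55.2%, and without the cells of other marker types its ratio was −3.21.

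**Figure D5:**
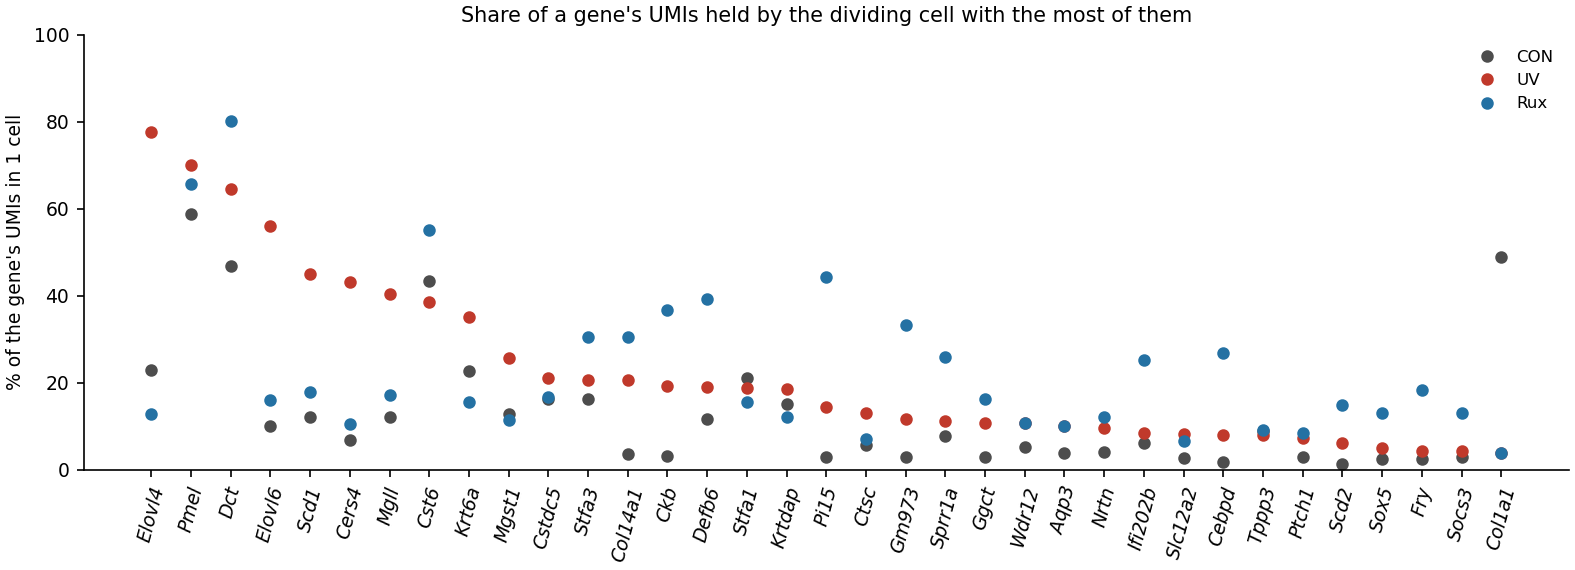
Share (%) of each gene's UMIs in the dividing epithelial cells of a library that came from the 1 cell with the most of them, for the genes named as highest or lowest in either comparison. In UV the share is 77.6% for Elovl4 and 4.32% for Socs3.

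Against epithelial cells with none of the 3 division genes in the same library, 149 of 3183 genes were at least 2-fold higher in the dividing cells in all 3 libraries (4.68%) and 9 at least 2-fold lower (0.283%), a contrast that the choice of cells used and that is given as a description. Apart from Top2a, Mki67 and Pclaf, and outside the S-phase, G2/M and chromatin lists, Pbk, a mitotic kinase, was the highest, with 57.2 CPM in CON, 59.7 CPM in UV and 78.5 CPM in Rux against 1.28, 0.863 and 0.514 CPM. Spc24, a kinetochore protein, had 126, 118 and 132 CPM against 4.36, 3.97 and 2.70 CPM. Hist1h1b, a linker histone with close copies, had 598, 560 and 836 CPM against 23.0, 24.9 and 20.1 CPM. The histone genes Hist1h2ae, Hist1h2ab, Hist1h3c and Hist1h2ap and the mitotic genes Knl1, Kif15, Shcbp1 and Kif4 were in the same group.

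The 15 genes with the lowest ratios included Krt10 and Cst6. Krt10, a keratin of the layers above the basal one, had 193 CPM in CON, 180 CPM in UV and 256 CPM in Rux against 1573, 313 and 670 CPM in cells with none of the division genes, which fell short of 2-fold in UV. In Pdgfra+ cells of CON it had 214 CPM, close to its level in the dividing cells. Cst6 had 110, 258 and 741 CPM against 3413, 3265 and 3772 CPM. The others were Sbsn, Defb6, Krt79, Ctsd, Krt1, Cstb, Gsn, Dsp, Calm4, Lncpint, Rab25, Zbtb16 and Sqstm1.

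Division was also counted in cells under the keratin minimum. Of Pdgfra+ cells, 2.24% (1.75% to 2.83%) met the same division criterion in CON, 1.86% (1.48% to 2.31%) in UV and 1.11% (0.838% to 1.45%) in Rux, and at 5000 UMIs per cell 1.58%, 0.982% and 0.542%. Of Ptprc+ cells, it was 5.62% (3.96% to 7.69%), 6.42% (4.67% to 8.58%) and 1.92% (1.21% to 2.89%), and at 5000 UMIs 6.13%, 5.62% and 2.40%. The order of CON and UV turned there, where shallower cells were also left out. In the other cells it was 9.09%, 9.45% and 8.45%, and at 5000 UMIs 9.53%, 7.93% and 6.53%. At equal depth the values fell from CON to UV to Rux in each of these 3 classes, but the intervals of CON and UV overlapped in all 3, and differences between the classes were not tested.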

How the data were processed

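Single cells of full-thickness dorsal skin were profiled with 10x Chromium 3' v3.1 chemistry, in 1 library each for CON, UV and Rux. The authors deposited UMI counts per gene and cell, not normalized. The submitters' notes name Cell Ranger 6.1.2, mm10 and Seurat 5.3.0, whereas the matrix headers name Cell Ranger 7.0.0, and whether reads in introns were counted is not given in the sources used here. The matrices held 13170, 12411 and 11287 barcodes with 165337289, 133972374 and 131570327 UMIs over 32285 genes.

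The dividing epithelial cells and the gene lists were chosen with earlier results of these data known. Counts of the dividing cells were summed per library and expressed as CPM of their total. Log2 ratios had 0.5 UMI added, and a gene was compared where its mean was at least 50 CPM and its sum at least 50 UMIs, with a 2-fold ratio as the limit. Shares have Clopper-Pearson intervals, levels Poisson intervals and ratios exact conditional intervals, all at 95% and for counting error only. Tested on simulated data for UV over CON, with 200 genes changed 2-fold, the sign was recovered for 100% of them and the interval covered the simulated ratio for 95.2% of genes. The simulated counts held counting error alone, with no spread between cells or mice. They therefore check the calculation only and not how far the ratios can be relied on. The genes named were the 10 highest and 10 lowest of those past 2-fold in UV over CON and in Rux over UV, the 15 most different from epithelial cells with none of the division genes, and members of the lists. The 40 duplicated symbols were left out, and 1 gene that this rule names in both comparisons is not reported here. Python 3.11.15, scanpy 1.11.5 and scipy 1.17.1 were used.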

Additional observations from a re-analysis of the deposited data

How the results depend on the processing

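No result has a replicate, so that the spread between mice is unknown, and no paired analysis was possible because each condition was 1 library. Rux had the fewest dividing cells, 84. Of 64 gene ratios past 2-fold, 61 stayed so in the same direction without marked doublets, 57 with at most 5% mitochondrial UMIs, 64 with at least 1500 genes, 32 with a keratin share of at least 1%, 42 with no hair gene detected, 61 with at least 2 UMIs of each division gene, 54 at 5000 UMIs per cell, 60 with equal weight per cell and 63 with median-of-ratios scaling. Of the alternatives chosen after seeing the data, 39 stayed with no limit on the hair genes, 51 without cells of other marker types, 45 with the CON mix of the Lgr5/Lhx2 compartments and 62 without the top cell of the gene. The cause of the changes below was not tested.

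The dividing share of epithelial cells in CON became 25.6% with at most 5% mitochondrial UMIs and 26.5% with at least 1500 genes. With a keratin share of at least 1% it was 10.9% in CON, and 27.0% and 9.47% in CON and UV with Lgr5 or Lhx2 and 4.51% and 19.3% with neither. With no hair gene detected it was 12.0%, 12.3% and 5.91% in CON, UV and Rux, 28.6%, 14.2% and 5.14% with Lgr5 or Lhx2 and 4.59%, 11.01% and 6.60% with neither. With at least 2 UMIs of each division gene it was 18.3% in CON and 15.2% in UV, 35.5% in CON with Lgr5 or Lhx2 and 4.27% in CON with neither. At 5000 UMIs per cell it was 14.6%, 10.6% and 6.30%, 26.4%, 10.4% and 2.77% with Lgr5 or Lhx2, and in UV and Rux 10.8% and 8.24% with neither. With no limit on the hair genes it was 36.1%, 32.7% and 21.8%, 58.1%, 43.8% and 26.0% with Lgr5 or Lhx2 and 8.10%, 21.1% and 17.8% with neither.

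The 118 genes past 2-fold for UV over CON became 256 with a keratin share of at least 1%, 47 with no limit on the hair genes, 60 with the CON mix, 1762 with a minimum of 20 UMIs alone and 57 with at least 100 CPM. The 65 for Rux over UV became 151 with no hair gene detected, 117 at 5000 UMIs, 25 with no limit on the hair genes, 157 without other marker types, 118 with the CON mix, 1050 with 20 UMIs alone and 27 with at least 100 CPM. The 247 for Rux over CON became 115 with no limit on the hair genes, 148 with the CON mix, 2630 with 20 UMIs alone and 116 with at least 100 CPM.

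The S-phase sum for UV over CON became −0.35 with at most 5% mitochondrial UMIs, −0.32 with the 1% keratin share, −0.45 with no hair gene, −0.38 at 5000 UMIs, −0.28 with no limit on the hair genes, −0.35 with equal weight, −0.27 without other marker types and −0.31 with the CON mix. The G2/M sum became 0.18, 0.39, 0.13, 0.13, 0.022, 0.19 and 0.044 in the same order, equal weight left out. For Rux over UV the S-phase sum became 0.079, 0.40, 0.31, 0.22, −0.060, 0.10, 0.074 and 0.058 in the full order, and 0.21 with median-of-ratios scaling. The G2/M sum became 0.20, 0.012, 0.38, 0.16, −0.032, 0.23, 0.38 and 0.21, and 0.24 with at least 2 UMIs of each division gene and 0.31 with median-of-ratios scaling.

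Of the ratios past 2-fold, directions turned for these genes, and some smaller ratios, such as those of Cebpd, Irf1, Stat3 and Id1 for UV over CON, also changed sign under an alternative. With at most 5% mitochondrial UMIs the ratio for UV over CON was −0.83 for Elovl4 and −0.25 for Scd1, and for Rux over UV 1.44 for Elovl4. With the 1% keratin share it was −1.60 for Elovl4 and −0.13 for Krt15 in UV over CON, and in Rux over UV −0.24 for Sprr1a, −2.03 for Cst6, −0.89 for Defb6, 0.50 for Cers4, 0.67 for Elovl4, 0.26 for Elovl6, 1.54 for Lgr5 and 0.23 for Lhx2. With no hair gene detected it was −1.67 for Elovl4 and −0.86 for Scd1 in UV over CON, and in Rux over UV −0.62 for Ggct, 1.42 for Elovl4, 0.040 for Scd1 and 0.45 for Klf2. At 5000 UMIs it was −0.49 for Elovl4 and −0.27 for Scd1 in UV over CON, and 1.98 for Elovl4, 0.72 for Scd1 and 0.19 for Elovl6 in Rux over UV. Without other marker types it was −0.76 for Elovl4 and −0.38 for Scd1 in UV over CON, and −3.21 for Cst6, −0.26 for Defb6, 1.59 for Elovl4 and 0.29 for Mgll in Rux over UV. With the CON mix it was −0.79 for Cst6 and −0.19 for Defb6 in Rux over UV.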

Other observations

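The median of the heat shock genes was lower and that of the glycolysis genes higher in the dividing epithelial cells of UV than in those of CON, with 0 genes past 2-fold in either list, and each difference was smaller in 1 compartment. The 10 heat shock genes summed to 5781 CPM in CON, 4812 CPM in UV and 5019 CPM in Rux, and the 15 glycolysis genes to 2370, 2876 and 3177 CPM. For UV over CON the median log2 ratio was −0.27 over 7 tested heat shock genes and 0.35 over 10 tested glycolysis genes. With Lgr5 or Lhx2 detected the medians were −0.32 and 0.07, and with neither −0.05 and 0.49. The 35 DNA repair genes summed to 1303 CPM in CON, 1107 CPM in UV and 1200 CPM in Rux, and 0 of the 6 tested differed by 2-fold. Of 18 tested genes of integrins and the basement membrane 1 was past 2-fold for UV over CON, Col4a1, a basement membrane collagen, which was lower, and it was below 2-fold where no hair gene was detected, at −0.77.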
